A study of Mus musculus with 12 samples.

Results

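The 59 genes described here are broadly expressed housekeeping genes of mouse chromosomes 8 and 11. They were chosen by name after the intensities of both chromosomes had been seen to read higher in CAG150 than in HM1, the 2 cell lines compared here, so the direction of that line difference is a property of the choice. Of the 59 genes, 56 had at least 1 probe set that carries their symbol alone, out of 18193 genes named on the arrays. Ncor1, Sumo2 and Actr2 had none of their own and were not measured. All 56, 29 on chromosome 8 and 27 on chromosome 11, cleared the filter on dim signal and were among the 12280 genes tested. They are called the members below.

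The arrays came from 4 groups with 3 arrays each. These were CAG150 cells after 4 days of neuronal differentiation, HM1 cells after 4 days, CAG150 cells after 6 days and HM1 cells after 6 days. Both are lines of mouse embryonic stem cells, and every group had been put through neuronal differentiation, so no undifferentiated cells are among them. CAG150 carries expanded CAG repeats, as far as the study is known in the Huntington's disease gene Htt, and HM1 is a line known to lack a working Hprt gene. The labels do not say whether CAG150 was made from HM1, and with 1 line of each kind any difference between the lines covers all that sets them apart. Nothing says that the arrays of a group came from separate cultures, so the errors and p-values below measure the spread between these arrays, which may be technical.

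Housekeeping genes supply what nearly every cell needs: RNA polymerase, splicing and translation factors, replication proteins, ubiquitin enzymes, transport factors, actin and metabolic enzymes. Because they are read in every cell type, their levels are less tied to a cell's identity than those of marker genes. Where a cell carries an additional copy of a chromosome, the mRNA of most genes on it is known to go up by about the same ratio, while products of subunits and feedback loops may be held closer to the usual level. Mouse embryonic stem cells in culture are known to gain whole chromosomes, with chromosomes 8 and 11 among the frequent ones. DNA was not measured in these samples.

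The intensity is the brightness of a probe set on a linear scale, and differences below are on the scale of log2(intensity + 16), CAG150 minus HM1 unless a day difference is named. The array medians ran from 19.2 to 25.9, no 2 arrays were identical, and their correlations over all genes ran from 0.9574 to 0.9908. The 12 arrays limit the precision of every value. The cell cultures differed in more than these genes. The summed intensity of 5 pluripotency markers was 453 to 502 in CAG150 against 1410 to 1607 in HM1 at day 4, and 830 to 918 in CAG150 against 2043 to 2361 in HM1 at day 6. The 6 fibroblast and smooth muscle markers summed to 3081 to 3156 in CAG150 against 5551 to 6619 in HM1 at day 4, and to 6404 to 7287 in CAG150 against 11587 to 13475 in HM1 at day 6. The 5 neuron markers summed to 1082 to 1237 in CAG150 against 2402 to 2607 in HM1 at day 4, and to 6429 to 6550 in CAG150 against 4370 to 4940 in HM1 at day 6. The 5 neural progenitor markers summed to 5344 to 5754 in CAG150 against 4645 to 5216 in HM1 at day 4. At day 6 they summed to 7274 to 8051 in CAG150 against 7250 to 7410 in HM1. The 5 endoderm markers summed to 38.5 to 45.7 in CAG150 against 51 to 97.4 in HM1 at day 4, and to 92.1 to 108 in CAG150 against 143 to 172 in HM1 at day 6. A sum weighs bright genes most, and the single markers did not all go with them. Of the neuron markers at day 4, Map2, Dcx and Elavl4 were called higher in CAG150 by 0.48, 0.74 and 0.65 and Stmn2 lower by 1.77 on the log2 scale, and at day 6 3 were called higher and 0 lower. Of the progenitor markers, only Hes5 was called higher at day 4, and only Pax6 was called, lower, at day 6. All 5 pluripotency markers were called lower at both days, as were 3 of 6 fibroblast and smooth muscle markers at each day and, of the 4 endoderm markers tested, 1 at day 4 and 2 at day 6, with 0 called higher in these 3 lists (limma, adjusted p under 0.05 over 12280 genes). No marker was at 0, and the part of these cell types in the results below was not tested. In RNA from a whole culture, fewer cells of a type and less RNA per cell cannot be told apart.

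Most promoter windows of the members were rich in CpG, which is known as common among housekeeping genes. Expression level was not matched in the comparison with all windows. RefSeq promoter windows of the assembly GRCm38.p6, which run from 250 bases before a start site to 50 after it, were found for 54 of the 59 genes and gave 70 windows. Their median GC content was 64%, against 52.7% over 32851 windows of 27025 genes. The median ratio of observed to expected CpG was 0.874 in the members' windows against 0.384 in all windows, and 53 of the 70 (75.7%) against 30.0% of all windows had a ratio over 0.6 with a GC content over 55%. The GC box GGGCGG stood in 60% of the members' windows against 35.7% of all, the CCAAT box CCAAT in 47.1% against 37.4%, the ETS core CCGGAA in 37.1% against 14.9%, and the E-box CACGTG in 17.1% against 7.15%. The TATA box TATAAA stood in 11.4% of the members' windows against 13.6% of all. Both strands were searched, and a window with several motifs counts under each. The 120 bases before the start site are printed for the member with the largest and the member with the smallest line difference on each chromosome among those with a window, so that the extremes can be set side by side. Eif4ebp1 has no window in the table. Bases are given on the gene's own strand, and capitals mark the letters of these motifs read on either strand.
Asf1b: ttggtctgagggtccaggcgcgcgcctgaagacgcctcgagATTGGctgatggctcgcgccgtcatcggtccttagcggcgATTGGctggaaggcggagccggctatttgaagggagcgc
Aprt: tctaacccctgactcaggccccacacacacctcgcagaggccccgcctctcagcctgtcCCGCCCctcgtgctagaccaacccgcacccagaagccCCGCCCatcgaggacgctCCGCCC
H3f3b: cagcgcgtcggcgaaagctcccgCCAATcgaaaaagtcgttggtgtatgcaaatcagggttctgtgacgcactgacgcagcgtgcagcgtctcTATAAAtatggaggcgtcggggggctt
Pfn1: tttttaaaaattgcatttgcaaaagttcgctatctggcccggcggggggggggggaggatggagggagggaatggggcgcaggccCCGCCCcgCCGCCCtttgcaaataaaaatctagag
The stretch of Asf1b lies at chr8:83955574-83955693 on the plus strand and holds the CCAAT box 2 times. The stretch of Aprt lies at chr8:122576908-122577027 on the minus strand and holds the GC box 3 times. The stretch of H3f3b lies at chr11:116024505-116024624 on the minus strand and holds 1 CCAAT box and 1 TATA box. The stretch of Pfn1 lies at chr11:70654651-70654770 on the minus strand and holds the GC box 2 times. A match is a description of the letters and not a shown binding site.

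Most members read higher in CAG150 at both days, by amounts that differed between them. Their median log2 difference was 0.15 at day 4 (1.11-fold), 0.22 at day 6 (1.16-fold) and 0.19 averaged over both days (1.14-fold), and 42, 48 and 46 of the 56 lay above 0, where 51%, 49.7% and 50.3% of all genes tested did. On chromosome 8 the median of 29 members was 0.21 at day 4, 0.25 at day 6 and 0.21 on average, with 27 above 0 on average. On chromosome 11 the median of 27 members was 0.10, 0.12 and 0.11, with 19 above 0 on average. The other genes of the same chromosomes gave medians of 0.22 over 642 genes on chromosome 8 and 0.20 over 980 genes on chromosome 11, and the 10131 genes of the other autosomes gave -0.02.

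The differences varied from member to member. The median SE of a member was 0.10 at each day and 0.07 on average. The SD over members of the average difference was 0.20, or 0.18 without Eif4ebp1. The same SD was 0.31 over the other genes of chromosomes 8 and 11 and 0.32 over the genes of the other autosomes. It was 0.14 over the 50 partner genes described below. The 3 CAG150 arrays all lay above the 3 HM1 arrays for 25 members at day 4 (17.3% of all genes tested), for 30 at day 6 (18.8% of all genes) and for 20 at both days (8.07% of all genes). All 3 lay below for Pfn1 alone at day 4 (17.1% of all genes) and for Eif4ebp1 alone at day 6 (19.8% of all genes). In limma's test with Benjamini-Hochberg adjustment over all 12280 genes, 11 members were called higher and 0 lower at day 4 (7.87% and 7.92% of all genes), 21 higher and 1 lower at day 6 (10.1% and 11.2%), and 25 higher and 1 lower on average (15.1% and 14.8%). These shares describe the members and test nothing, since the list was made with this contrast in view.

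A ratio of 1.5, which 3 copies in place of 2 would give if mRNA went in proportion, is 0.58 on the log2 scale and serves here as a yardstick of size. With the brightest probe set standing for each gene, no member reached it at day 4 or on average. At day 6, 3 did: H3f3b at 0.83, Stat3 at 0.76 and Asf1b at 0.63. Some other probe sets of members reached it, such as 1 of Mdh1 at 0.78 and 1 of Ctcf at 0.70 on average. The median of the 72 other probe sets with signal was 0.21 on average. The counts that follow again use the brightest probe sets. Between 0.2 and the yardstick lay 25 members at day 4, 26 at day 6 and 26 on average. Within 0.2 of 0 lay 29, 26 and 29, and at -0.2 or lower 2, 1 and 1. Differences on this scale understate the ratio of dim genes, and differences of bright genes are taken up below. Across the 56 members, the differences at day 4 and at day 6 had Pearson's r = 0.54 and Spearman's rho = 0.64. The 2 days share no array but share probe sets. The sign was the same at both days for 50 members. That count tests nothing, since the list was made with a sign above 0 in view.

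**Figure D1:**
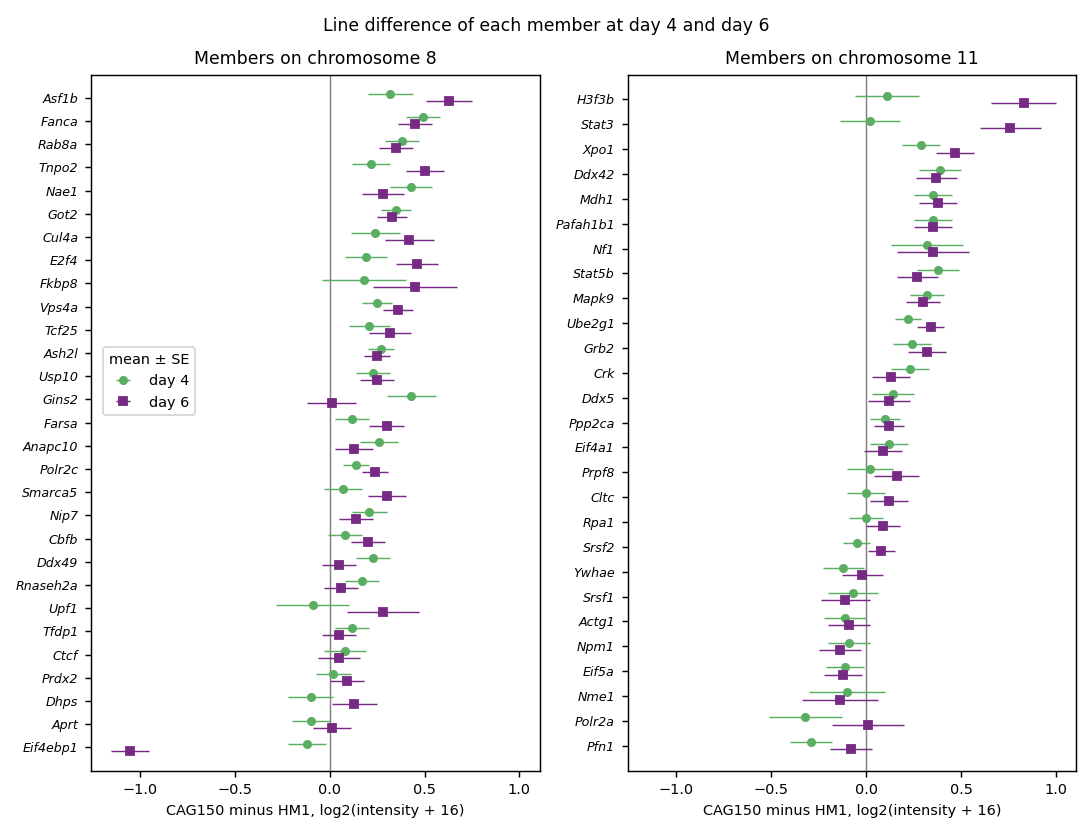
Log2 difference of CAG150 minus HM1 for each of the 56 members, chromosome 8 at the left and chromosome 11 at the right, sorted by the average of both days. Circles are day 4, squares day 6, bars 1 SE from limma over 3 arrays per group. Most points lie between 0 and 0.5, with 42 members above 0 at day 4 and 48 at day 6, and the square of Eif4ebp1 stands apart at -1.05.

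Among the 12 genes of transcription and chromatin the median average difference was 0.22, with 11 above 0. Asf1b, a chaperone that hands histones to newly made DNA, had the largest difference of chromosome 8. Its intensity was 630, 696 and 874 in CAG150 against 520, 610 and 607 in HM1 at day 4, and 863, 785 and 855 in CAG150 against 488, 566 and 544 in HM1 at day 6. Every CAG150 array lay above every HM1 array of its day, and the difference was 0.32 ± 0.12 at day 4 and 0.63 ± 0.12 at day 6 (SE, 3 arrays per group). H3f3b, which codes for the replacement histone H3.3, had the largest of chromosome 11 from a dim probe set. It read 46.9, 47.8 and 58.9 in CAG150 against 35.9, 52.5 and 50.6 in HM1 at day 4, and 129, 108 and 82 in CAG150 against 43, 48.9 and 66.8 in HM1 at day 6. The lines overlapped at day 4 (0.11 ± 0.17, SE) and were apart at day 6 (0.83 ± 0.17).

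Stat3, the transcription factor that carries the signal of leukaemia inhibitory factor in mouse embryonic stem cells, showed the same shape. It read 74, 82.2 and 85.3 in CAG150 against 104, 61.7 and 75.7 in HM1 at day 4, and 163, 198 and 183 in CAG150 against 128, 94.9 and 82.9 in HM1 at day 6. The lines overlapped at day 4 (0.02 ± 0.16, SE), and at day 6 all 3 CAG150 arrays were above all 3 HM1 arrays (0.76 ± 0.16). Its other 2 probe sets with signal gave smaller average differences of 0.05 and 0.20. The mean of its probe sets, 1 without enough signal among them, gave 0.16 in place of 0.39. Polr2a, the largest subunit of RNA polymerase II, was the gene of this group below 0 on average (-0.15 ± 0.14, SE). Its intensity was 585, 738 and 579 in CAG150 against 887, 948 and 581 in HM1 at day 4, and 454, 503 and 508 in CAG150 against 476, 384 and 624 in HM1 at day 6. Both days showed overlap, and 2 of the HM1 arrays at day 4 were high while the other was among the CAG150 values. Polr2c, the smaller subunit on chromosome 8, had 0.19 ± 0.05. The remaining genes of the group, among them the cell-cycle factors E2f4 and Tfdp1, the insulator protein gene Ctcf, the remodeller Smarca5 and the methyltransferase subunit Ash2l, lay between 0.06 and 0.33.

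The 6 RNA processing genes had a median average difference of 0.09, with 5 above 0. Ddx42, an RNA helicase of the spliceosome, was the highest of them. Its intensity was 369, 424 and 458 in CAG150 against 331, 291 and 322 in HM1 at day 4, and 451, 383 and 403 in CAG150 against 328, 344 and 278 in HM1 at day 6. The lines were apart at both days, at 0.39 ± 0.11 and 0.37 ± 0.11 (SE). The splicing factors Srsf1 and Srsf2, the spliceosome core gene Prpf8, the helicase Ddx5 and the nonsense-mediated decay helicase Upf1 lay between -0.09 and 0.13. Of these Srsf1 was the 1 below 0, and it lay at 0.03 with quantile normalization.

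The 9 genes of translation and ribosome assembly had a median average difference of 0.10, with 6 above 0. They held the member farthest below 0, Eif4ebp1, which codes for a repressor of the cap-binding factor eIF4E. It read 2652, 2976 and 2694 in CAG150 against 2819, 3425 and 2849 in HM1 at day 4, and 925, 882 and 874 in CAG150 against 1712, 2025 and 1892 in HM1 at day 6. At day 4 the lines overlapped, and at day 6 each CAG150 array had about the same low value, below all HM1 arrays. The difference was -0.12 ± 0.10 at day 4 and -1.05 ± 0.10 at day 6 (SE). Dhps, the enzyme that starts the hypusine modification of eIF5A, was next to 0 on average (0.01 ± 0.08). Its intensity was 350, 362 and 350 in CAG150 against 330, 429 and 386 in HM1 at day 4, and 345, 284 and 319 in CAG150 against 251, 323 and 292 in HM1 at day 6. Neither day set the lines apart.

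Eif5a, the substrate of that enzyme, was at -0.12 ± 0.07 (SE) on average as deposited and at 0.03 with quantile normalization. It read 10496, 10729 and 9884 in CAG150 against 12455, 11402 and 9916 in HM1 at day 4, and 8628, 9834 and 8804 in CAG150 against 10502, 9439 and 9744 in HM1 at day 6. These are among the brightest values of the list, and the lines overlapped at both days. The helicase Eif4a1 of the cap-binding complex was at 0.10, the nucleolar chaperone Npm1 at -0.11 as deposited and at 0.03 with quantile normalization, and the ribosome assembly genes Nip7 and Ddx49 at 0.18 and 0.14. The phenylalanyl-tRNA synthetase subunit Farsa was at 0.21, and Tcf25, a component of ribosome quality control, at 0.27.

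All 4 genes of DNA replication and repair lay above 0 on average, with a median of 0.17. Fanca, a subunit of the Fanconi anaemia complex that deals with DNA crosslinks, read 246, 258 and 258 in CAG150 against 183, 182 and 164 in HM1 at day 4, and 172, 221 and 183 in CAG150 against 139, 127 and 140 in HM1 at day 6. The lines were apart at both days by about the same step, 0.49 ± 0.09 and 0.45 ± 0.09 (SE), and its second probe set gave 0.51 on average against 0.47 for the one used. Gins2, part of the replicative helicase, differed by 0.43 ± 0.13 at day 4 and 0.01 ± 0.13 at day 6. Rnaseh2a, which removes RNA from DNA, and Rpa1, which coats single-stranded DNA, averaged 0.11 and 0.04.

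The 5 genes of ubiquitin and related modifiers were the most even group, with average differences from 0.20 to 0.35 and a median of 0.28. They are the cullin scaffold Cul4a, the NEDD8 activating subunit Nae1, the anaphase-promoting complex subunit Anapc10, the deubiquitinase Usp10 and the conjugating enzyme Ube2g1. Ube2g1, on chromosome 11, was apart between the lines at both days, with 0.22 ± 0.07 at day 4 and 0.34 ± 0.07 at day 6 (SE). Cul4a overlapped at day 4 and Anapc10 at day 6.

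The 8 genes of transport and cytoskeleton fell into a high and a low set, with a median of 0.33. Xpo1, the main nuclear export receptor, read 3391, 3488 and 3285 in CAG150 against 3145, 2495 and 2676 in HM1 at day 4, and 2548, 2669 and 2278 in CAG150 against 1935, 1777 and 1676 in HM1 at day 6. The lines were apart at both days (0.29 ± 0.10 and 0.47 ± 0.10, SE). Rab8a, a small GTPase that directs vesicles to the cell surface, read 861, 788 and 821 in CAG150 against 594, 616 and 677 in HM1 at day 4, and 868, 1000 and 896 in CAG150 against 695, 695 and 764 in HM1 at day 6. Both days again had all CAG150 arrays above all HM1 arrays (0.38 ± 0.09 and 0.35 ± 0.09). The mean of the probe sets of Rab8a gave 0.16 on average in place of 0.37. That mean takes in 1 probe set without enough signal, at an intensity of 2.09, and 1 at 18.8 that gave 0.23. Tnpo2, a nuclear import receptor, read 262, 247 and 252 in CAG150 against 234, 221 and 194 in HM1 at day 4, and 255, 276 and 247 in CAG150 against 201, 172 and 165 in HM1 at day 6. The CAG150 values were nearly level across the days, and the lines were apart at both (0.22 ± 0.10 and 0.50 ± 0.10). For Tnpo2 the mean of the probe sets gave 0.52 on average in place of 0.36.

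Pfn1, which codes for the actin-binding protein profilin, was the lowest member of chromosome 11. It read 4227, 4794 and 4260 in CAG150 against 5392, 6057 and 4804 in HM1 at day 4, and 3406, 4124 and 3588 in CAG150 against 4019, 3697 and 4025 in HM1 at day 6. At day 4 the highest CAG150 array lay just under the lowest HM1 array (-0.29 ± 0.11, SE), and at day 6 the lines overlapped (-0.08 ± 0.11). Its average of -0.18 stayed below 0 under each scaling and lay between -0.19 and -0.05 outside the runs that left out an array. The cytoplasmic actin gene Actg1 was at -0.10 as deposited and at 0.04 with quantile normalization, and the clathrin heavy chain gene Cltc at 0.06. The AAA ATPase gene Vps4a and Pafah1b1, which codes for the dynein regulator LIS1, were at 0.31 and 0.35.

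The 6 signalling genes had a median of 0.23. The adaptors Grb2 and Crk were at 0.28 and 0.18, the Ras regulator Nf1 at 0.34, the stress kinase Mapk9 at 0.31 and the phosphatase subunit Ppp2ca at 0.11. Ywhae, a 14-3-3 protein gene and one of the brightest members, was at -0.07 as deposited and at 0.08 with quantile normalization. The 6 genes of metabolism and protein folding had a median of 0.18. Got2 and Mdh1, which code for enzymes of the malate-aspartate shuttle, were at 0.34 and 0.37. Their paralogues on other autosomes were at -0.12 and -0.05. The chaperone Fkbp8 was at 0.31.

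The other 3 metabolic genes lay close to 0. Aprt, the adenine salvage enzyme, read 1556, 1721 and 1754 in CAG150 against 1677, 1980 and 1729 in HM1 at day 4, and 1004, 850 and 1008 in CAG150 against 880, 985 and 967 in HM1 at day 6. The lines overlapped at both days, and the average was -0.04 ± 0.07 (SE) as deposited and 0.04 when arrays were centred along intensity. Prdx2, a peroxidase that removes hydrogen peroxide, read 5355, 5532 and 5335 in CAG150 against 5470, 5934 and 4691 in HM1 at day 4, and 5870, 6371 and 5837 in CAG150 against 5705, 5623 and 5677 in HM1 at day 6. The lines overlapped at day 4 and were apart at day 6, with an average of 0.05 ± 0.06 that came to 0.17 with quantile normalization. Nme1, a nucleoside diphosphate kinase gene, was the most scattered of them. It read 3215, 5051 and 4172 in CAG150 against 5261, 3582 and 4470 in HM1 at day 4, and 4354, 4661 and 2955 in CAG150 against 4663, 3813 and 4560 in HM1 at day 6. Its lines overlapped at both days, and its average of -0.12 ± 0.14 went to -0.04 with quantile normalization and to 0.01 along intensity.

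Among the members, the line difference tended to be lower for brighter genes. The 15 members with a mean intensity of 3000 or more had a median average difference of 0.01, with 8 above 0, and the 41 dimmer members had 0.27, with 38 above 0. Over the members, the average difference and log2 mean intensity had Pearson's r = -0.57 and Spearman's rho = -0.60 (n = 56, all read from the same 12 arrays). The 1622 other genes of chromosomes 8 and 11 gave weak values of the opposite sign, r = 0.13 and rho = 0.17. Of these, 533 lay under an intensity of 100, with a median of 0.11, where only 2 members lay. In the bins from 100, 300, 1000 and 3000 upward, the other genes had 0.25, 0.26, 0.18 and 0.08. The members had 0.33, 0.28, 0.19 and 0.01 in the same bins, so both were lowest at the bright end. The 10131 genes of the other autosomes gave r = -0.08 and rho = -0.14. Bright genes elsewhere were also lower in CAG150. The 234 genes of the other autosomes at 3000 or more had a median of -0.13, with 8.97% above 0, against -0.02 for the 9897 dimmer ones. The 42 other bright genes of chromosomes 8 and 11 had 0.08, against 0.21 for 1580 dimmer ones.

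When each array was centred along intensity on the genes of the other autosomes, a step chosen after these values were seen, the bright genes of the other autosomes had a median of 0.01. The 15 bright members then had 0.16, with 14 above 0, and the 41 others 0.34, with 39 above 0. All 56 members together had 0.22 at day 4, 0.30 at day 6 and 0.27 on average, with 50, 54 and 53 above 0, and the chromosomes came closer, at 0.27 for chromosome 8 and 0.26 for chromosome 11. With quantile normalization the members' medians were 0.18, 0.24 and 0.23, and the 15 bright ones had 0.12, with 13 above 0. The correlation with brightness was -0.37 along intensity and -0.32 with quantile normalization. Npm1, Actg1, Eif5a, Ywhae and Srsf1 were below 0 as deposited and above 0 under both of these scalings, Nme1 and Aprt above 0 under the one along intensity. What set this pattern was not tested. The highest intensity of any probe set on any array was 16752.

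**Figure D2:**
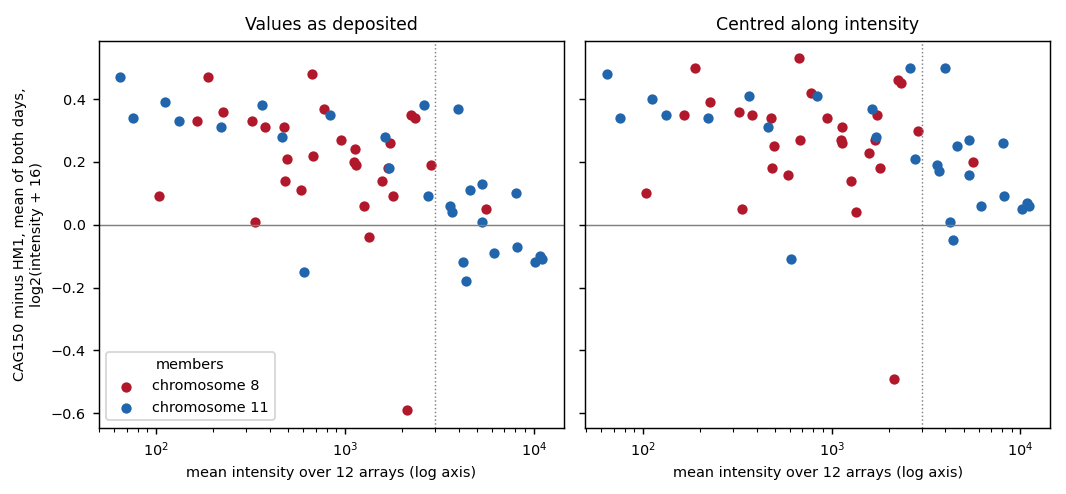
Average log2 difference of CAG150 minus HM1 for the 56 members against mean intensity over 12 arrays (log axis), red for chromosome 8 and blue for chromosome 11. Left are values as deposited and right values centred along intensity, and the dotted line marks 3000. The 15 members right of the line have a median of 0.01 as deposited and 0.16 after centring.

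Most probe sets of the members lay above 0, and their sizes differed within a gene. The 56 genes had 137 probe sets, of which 128 had enough signal, and 39 genes had at least 2 of these. Of the 72 probe sets beside the one used, 61 had the same sign of the average difference. Since 110 of the 128 lay above 0 and the list was chosen with that sign in view, a shared sign tests nothing. The median range within a gene was 0.26. All probe sets were above 0 for 29 of the 39 genes and below 0 for 3, namely Eif4ebp1, Npm1 and Polr2a, while 7 genes were mixed. The widest range was that of Ddx5, from -0.49 on a dim probe set to 0.20, and the ranges of Mdh1 (0.12 to 0.78), Ctcf (0.06 to 0.70), Crk (0.04 to 0.57) and Pafah1b1 (0.22 to 0.74) stayed above 0. The ending of a probe set's name says whether its probes can match other transcripts. The 11 members read through an s_at or x_at probe set, which can take up signal from near-identical copies, had a median of -0.04, with 5 above 0, and the 45 read through at or a_at probe sets had 0.24, with 41 above 0. Of the 11, Eif4ebp1, Eif5a, Actg1, Ywhae, Nme1 and Aprt were below 0. Mdh1, Gins2, Anapc10, Ddx5 and Srsf2 were above 0. The mean intensities of the 11 ran from 677 to 10829, so that ending and brightness moved together. Their separate parts were not tested.

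For each of 57 members, 1 gene known as its paralogue, complex subunit or binding partner was set beside it, and 50 of these partners were tested and lie on other autosomes. Partners share a function with the member but not its chromosome. They had a median log2 difference of -0.07 at day 4, -0.03 at day 6 and -0.05 on average, with 16 of 50 above 0 on average, where 45.4% of all genes on the other autosomes were. In limma's test 2 were called higher and 7 lower on average (15.1% and 14.8% of all genes). Among all genes on the other autosomes, 10.3% were called higher and 16.2% lower. Of 48 pairs, the member had the larger difference in 42 at day 4, 39 at day 6 and 43 on average, with a median gap of 0.20, 0.17 and 0.21. The pairs are a description, since the members' side was known when they were chosen.

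The widest gap on average was that of the histone chaperones, with Asf1b at 0.48 and Asf1a, on chromosome 10, at -0.29. Asf1a read 972, 970 and 936 in CAG150 against 1185, 1234 and 1291 in HM1 at day 4, and 1140, 1139 and 1084 in CAG150 against 1270, 1340 and 1310 in HM1 at day 6. The lines were apart at both days in the direction opposite to Asf1b (limma, adjusted p = 0.0052 at day 4). The subunits of phenylalanyl-tRNA synthetase also went opposite ways, with Farsa at 0.21 and Farsb, on chromosome 1, at -0.34. Farsb read 1101, 1264 and 1133 in CAG150 against 1431, 1503 and 1402 in HM1 at day 4, and 865, 814 and 795 in CAG150 against 1105, 1048 and 1081 in HM1 at day 6, with no overlap (limma, adjusted p = 0.021 at day 4). Fkbp4, the partner of Fkbp8, was at -0.30. The highest partners were Pafah1b2 at 0.34, Ddx46 at 0.24 and Fancg at 0.20. Pafah1b2, on chromosome 9, read 982, 944 and 1147 in CAG150 against 836, 774 and 838 in HM1 at day 4, and 1418, 1346 and 1351 in CAG150 against 1056, 1107 and 1052 in HM1 at day 6, so that it stood as high in CAG150 as its member Pafah1b1 (limma, adjusted p = 0.026 at day 4).

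**Figure D3:**
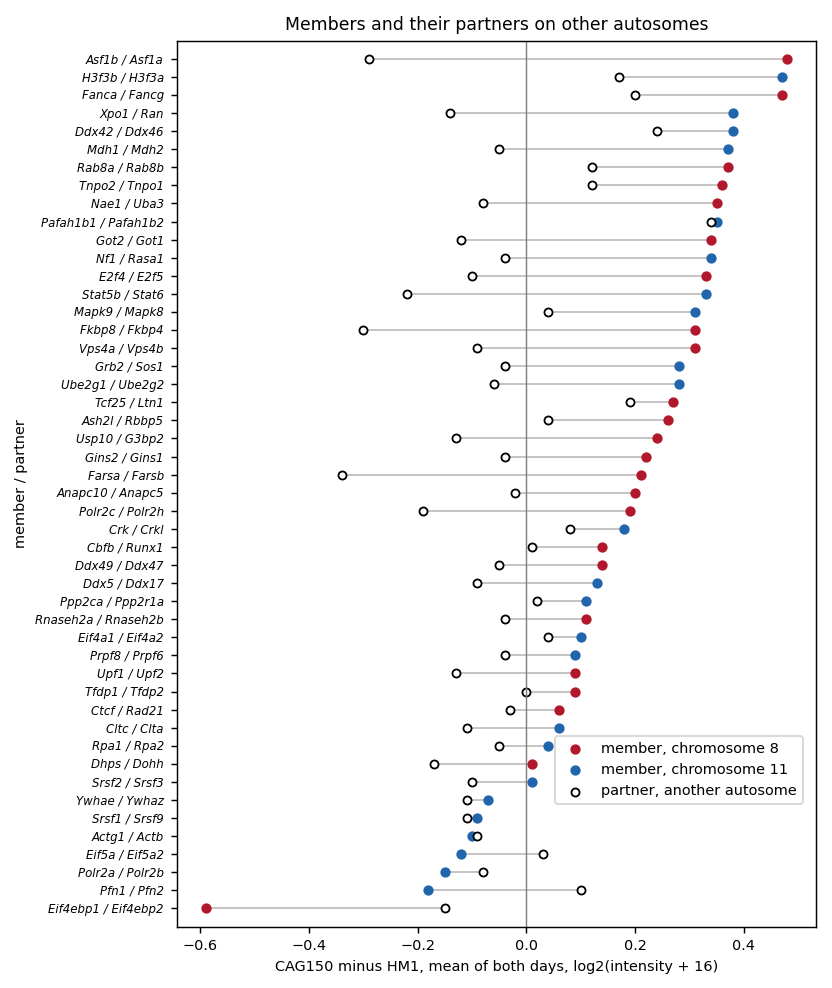
Average log2 difference of CAG150 minus HM1 for 48 members (filled, red for chromosome 8 and blue for chromosome 11) and for the partner of each on another autosome (open). The filled point lies right of the open one in 43 of the 48 pairs, with a median gap of 0.21.

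The members lie along the whole of both chromosomes. The 671 tested genes of chromosome 8 were put in their order in GRCm38.p6 and cut into 10 stretches of near-equal gene number. The median average difference of a stretch ran from 0.20 to 0.27, and for the 1007 genes of chromosome 11 from 0.16 to 0.27. Every stretch lay above the medians of the other autosomes, which ran from -0.06 on chromosome 10 to 0. No member lies in stretch 3 of chromosome 8 or in stretch 1 of chromosome 11. Stretch 2 of chromosome 11, with 4 members, Xpo1 and Mdh1 among them, had the highest median of that chromosome. Medians of stretches this long smooth over shorter runs. On chromosome 11, every tested gene from place 86 (Cnrip1) to place 110 (Cct4) lay between 0.31 and 1.89. This run crosses from stretch 1 into stretch 2 and holds Mdh1 at 0.37. What set it apart was not tested. Members that lie close together did not all have the same difference. In stretches 4 and 5 of chromosome 11, Pfn1, Polr2a and Eif5a averaged -0.18, -0.15 and -0.12, Eif4a1 0.10, Crk 0.18 and Pafah1b1 0.35. The SE was 0.14 for Polr2a and 0.07 for each of the others. Centred along intensity, the same genes were at -0.05, -0.11, 0.05, 0.26, 0.28 and 0.41, so that Eif4a1 and Crk hardly differed.

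**Figure D4:**
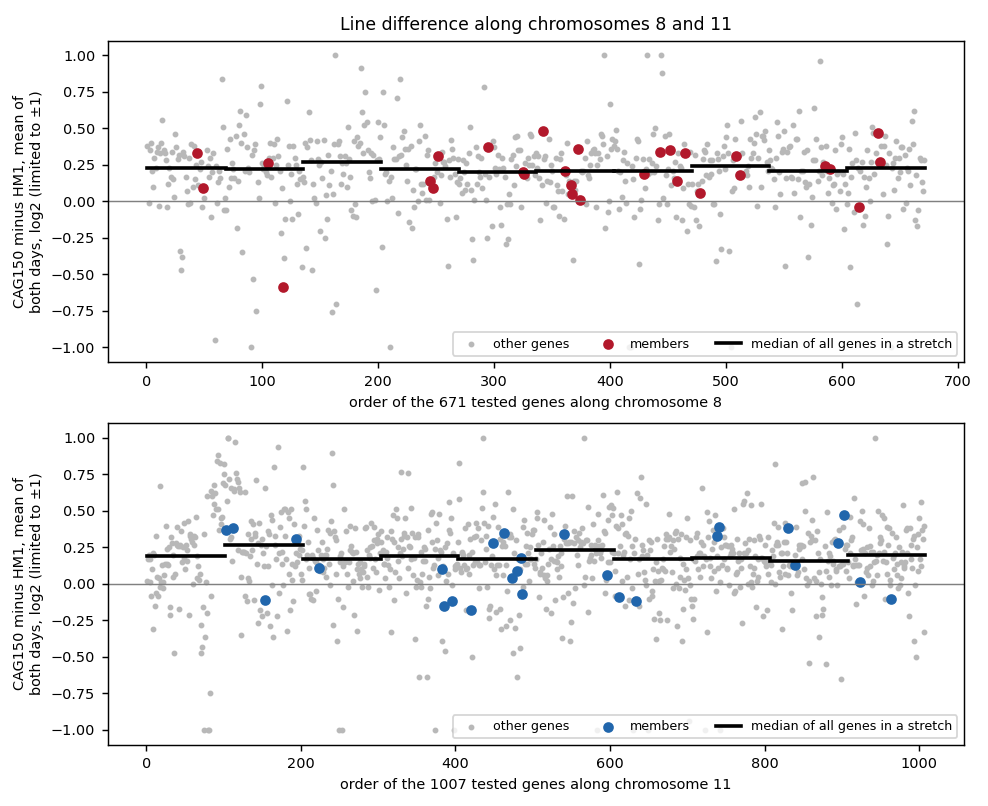
Average log2 difference of CAG150 minus HM1 for each tested gene in its order along chromosome 8 (top, 671 genes) and chromosome 11 (bottom, 1007 genes), limited to between -1 and 1. Grey points are other genes, coloured points members, and black bars the median of all genes in a stretch, which stay between 0.16 and 0.27.

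The change between the days did not enter the choice of the members and was tested. Between day 6 and day 4, more members fell than rose in both lines. In CAG150, 16 members fell and 6 rose (21.9% and 22.5% of all genes did), with a median of -0.15, and in HM1, 19 fell and 4 rose (18.5% and 20.4% of all genes), with a median of -0.18 (limma, adjusted p under 0.05 over 12280 genes). In both lines together 12 members fell and 4 rose, against 13.8% and 15.3% of all genes. Those that fell in both were Aprt, E2f4, Eif4ebp1, Nip7, Usp10, Tfdp1, Polr2c, Ddx49, Ash2l, Fanca, Xpo1 and Mdh1. Those that rose in both were Grb2, Vps4a, Ube2g1 and Pafah1b1. All 3 arrays at day 6 lay below all 3 at day 4 for 26 members in CAG150 (27.6% of all genes) and for 23 in HM1 (24.3%), and above them for 8 in CAG150 (27.4%) and for 5 in HM1 (24.8%).

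The falls and rises are given here by role, with few genes in each, and their spread over the roles was not tested. Of all genes tested, 21.9% fell and 22.5% rose in CAG150, and 18.5% fell and 20.4% rose in HM1. Of the 9 genes of translation and ribosome assembly, 4 fell in CAG150 and 5 in HM1, and none rose. Of the 4 replication and repair genes, 3 fell in CAG150 and 2 in HM1, and none rose. Of the 12 genes of transcription and chromatin, 4 fell and 2 rose in CAG150, and 5 fell and none rose in HM1. Of the 6 signalling genes, Grb2 rose in each line and none fell. The marker sums moved between the days too, with the neuron markers at 6429 to 6550 at day 6 against 1082 to 1237 at day 4 in CAG150, and at 4370 to 4940 at day 6 against 2402 to 2607 at day 4 in HM1. All 5 neuron markers rose in CAG150 and 4 rose in HM1. The part of the changing makeup of the culture in the members' day differences was not tested.

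Aprt, whose 12 values are given above, was lower at day 6 on every array of its line. Its day difference was -0.81 ± 0.10 in CAG150 (limma, adjusted p = 3.4e-05) and -0.91 ± 0.10 in HM1 (adjusted p = 1.6e-05). E2f4, a factor that holds cell-cycle genes down in resting cells, read 121, 150 and 144 at day 6 against 212, 227 and 245 at day 4 in CAG150, and 98.3, 80 and 112 at day 6 against 192, 195 and 205 at day 4 in HM1. The days did not overlap in either line, with -0.66 ± 0.11 in CAG150 (limma, adjusted p = 0.00044) and -0.93 ± 0.11 in HM1 (adjusted p = 3.9e-05). Eif4ebp1 fell by 1.62 on the log2 scale in CAG150 (limma, adjusted p = 7.8e-08), or 3.06-fold, and by 0.68 in HM1 (adjusted p = 0.00015), or 1.61-fold.

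Fewer members rose than fell, and some of the rises in HM1 were lost when 1 array was left out. Grb2, the adaptor that links receptor tyrosine kinases to Ras, read 531, 636 and 585 at day 6 against 456, 425 and 418 at day 4 in CAG150, and 465, 411 and 520 at day 6 against 333, 380 and 385 at day 4 in HM1. The days did not overlap in either line, and the difference was 0.41 ± 0.10 in CAG150 (limma, adjusted p = 0.006) and 0.33 ± 0.10 in HM1 (adjusted p = 0.024). The HM1 call was lost without HM1 day 4 replicate 1 (adjusted p = 0.09), day 6 replicate 1 (0.061) or day 6 replicate 3 (0.1), with only the 2 groups compared (0.054), and with the mean of its probe sets, which gave 0.10.

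Vps4a, which takes the membrane-remodelling ESCRT complex apart, read 575, 630 and 602 at day 6 against 451, 481 and 444 at day 4 in CAG150, and 457, 442 and 499 at day 6 against 369, 411 and 368 at day 4 in HM1. The days were apart in both lines, with 0.38 ± 0.08 in CAG150 (limma, adjusted p = 0.0025) and 0.27 ± 0.08 in HM1 (adjusted p = 0.02). The HM1 call was lost without HM1 day 4 replicate 1 (adjusted p = 0.061) or replicate 3 (0.066), without day 6 replicate 3 (0.081), with only the 2 groups compared (0.057), and with arrays centred on genes outside chromosomes 8, 11, X and Y (0.053). Pafah1b1, which is needed for neurons to migrate, read 1148, 1017 and 971 at day 6 against 867, 832 and 801 at day 4 in CAG150, and 802, 777 and 870 at day 6 against 724, 579 and 651 at day 4 in HM1. The days were apart in both lines, with 0.32 ± 0.10 in each (limma, adjusted p = 0.019 in CAG150 and 0.021 in HM1). Its calls were lost without HM1 day 4 replicate 2 (adjusted p = 0.084) or day 6 replicate 3 (0.077), without CAG150 day 4 replicate 3 (0.061) or day 6 replicate 1 (0.082), and with the mean of its probe sets (0.061 in CAG150 and 0.23 in HM1).

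**Figure D5:**
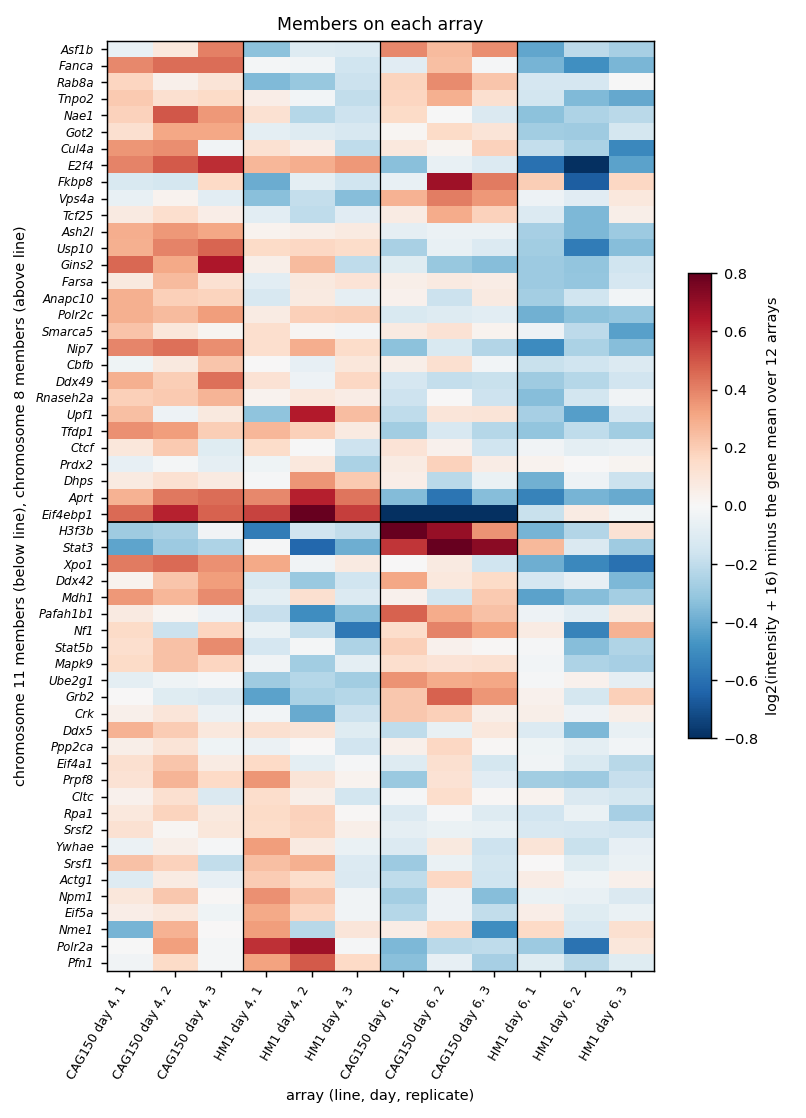
Log2(intensity + 16) of each of the 56 members (rows, chromosome 8 above the line and chromosome 11 below) on each of the 12 arrays (columns), minus the gene's mean over all arrays. Red is above and blue below that mean. Within each day the CAG150 columns are redder than the HM1 columns for most rows, and Eif4ebp1 is the row with the deepest blue, in the 3 CAG150 arrays at day 6.

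Whether a member's line difference itself changed between the days was tested with the interaction of line and day. It passed for 1 of the 56 members, Eif4ebp1, which was lower, and for 0 that were higher, where 2.03% of all genes passed lower, 1.58% higher and 3.61% either way. Its line difference was lower at day 6 than at day 4 by 0.93 ± 0.14 on the log2 scale (limma, adjusted p = 0.0027), with CAG150 at 894 ± 27.2 against HM1 at 1876 ± 157 at day 6, and CAG150 at 2774 ± 176 against HM1 at 3031 ± 341 at day 4 (SD, n = 3 each). The probe set used is of the x_at kind, and a second probe set of the gene, of the at kind, gave -0.95 ± 0.14 while another, dim one gave -0.54 ± 0.15. The interaction passed in each of the 23 alternatives, with values from -1.02 to -0.81. Its partner Eif4ebp2, on chromosome 10, read 461, 617 and 678 in CAG150 against 734, 598 and 796 in HM1 at day 6, and 841, 839 and 985 in CAG150 against 772, 977 and 979 in HM1 at day 4, with overlap at both days.

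The other 55 members did not pass. At an unadjusted p under 0.05 the test named 4 members in all, where 16.5% of all genes were under it. Beside Eif4ebp1 these were Stat3 at 0.73 ± 0.23 (limma, adjusted p = 0.11), H3f3b at 0.71 ± 0.23 (adjusted p = 0.13) and Gins2 at -0.42 ± 0.18 (adjusted p = 0.25). Stat3 and H3f3b rose between the days in CAG150, by 1.03 ± 0.16 and 0.85 ± 0.17 (adjusted p = 0.00023 and 0.0011), while the values in HM1 were 0.30 ± 0.16 and 0.14 ± 0.17 (adjusted p = 0.17 and 0.54). For 43 members the interaction lay within 0.2 of 0. The median SE of a member's interaction was 0.14, close to the median line difference itself.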

How the data were processed

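The deposited table holds Affymetrix intensities on a linear scale. By their values, the authors had brought each array to a common mean of 150, taken after setting aside the highest and lowest 2% of its probe sets. The software behind the intensities was not given in the sources used here. The 12 arrays were put in 4 groups by their titles, since the descriptions of the HM1 day 6 samples give the earlier day and those of all day 6 samples give replicate 1.

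Of 45101 probe sets, 64 controls were left out. Genes were named where the platform annotation gives 1 symbol (34945 probe sets, with 932 holding several and 9160 none here), and chromosomes, gene order and promoter sequences came from RefSeq tables of GRCm38.p6. Values were taken as log2(intensity + 16). The brightest probe set stood for a gene, kept where its mean passed the 40th percentile of probe sets (4.8, an intensity of 11.9). limma 3.58.1 in R 4.3.3 fitted 4 group means to 12 arrays with eBayes (8 residual and 4.46 prior degrees of freedom), with Benjamini-Hochberg adjustment over 12280 genes at 0.05. The fit was tested on simulated data. The marker, partner and role lists, like the members, were chosen with earlier results of these data known.

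Values on all arrays are printed for the 4 members with the largest and the 4 with the smallest average line difference per chromosome, for the 3 largest rises and falls between days that passed in both lines, and for members that passed the interaction. Partners of such members and the 3 highest and lowest partners may be named. Alternatives were quantile normalization, median centring over all genes or over genes outside chromosomes 8, 11, X and Y, pseudocounts of 1 and 64, no filter or the 60th percentile, the mean of probe sets, a fit to only the 2 groups compared, a replicate block, limma-trend and leaving out each array. Centring along intensity was added after the data were seen. Raw array files were not used here.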

Additional observations from a re-analysis of the deposited data

Results flagged for a closer look

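Eif4ebp1 drew attention because its line difference was not the same at the 2 days. The line difference at day 6 minus that at day 4 was -0.93 on the log2 scale (limma interaction, adjusted p = 0.0027), with all 3 CAG150 arrays below all 3 HM1 arrays at day 6 and overlap at day 4. Of the 5 cell type lists, the pluripotency, fibroblast and endoderm sums were lower in CAG150 at both days, the endoderm sums at dim signal. The neuron sum was higher in CAG150 at day 6 and lower at day 4. At day 4 Stmn2 was called lower and 3 of the 5 neuron markers were called higher. The part of these cell types in the value of Eif4ebp1 was not tested.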

How the results depend on the processing

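Of 980 alternative values of 42 results, 944 kept their direction and side of the threshold or moved by less than the spread, 20 moved, 16 lost a call and 0 turned a call round. Centring along intensity, added after the data were seen, gave members' medians of 0.22 at day 4, 0.30 at day 6 and 0.27 on average. As deposited they were 0.15, 0.22 and 0.19. By its construction this step brings the genes of the other autosomes near 0 at each intensity. Centring on the median of genes outside chromosomes 8, 11, X and Y, without regard to intensity, gave members' medians of 0.19, 0.26 and 0.22. Leaving out each array gave 0.15 to 0.17, 0.18 to 0.23 and 0.18 to 0.20. The 4 members that rose in HM1 became 2 with arrays centred on genes outside chromosomes 8, 11, X and Y, 2 with the mean of probe sets, 1 with only the 2 groups compared and 1 to 4 when an array was left out, the 1 coming without HM1 day 6 replicate 3. The cause was not tested. With a pseudocount of 64 the interaction passed for 2 members, Stat3 and Eif4ebp1. The partners' median of -0.05 became -0.01 with centring on genes outside chromosomes 8, 11, X and Y, 0.01 with the mean of probe sets and 0.01 along intensity.

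The replicate numbers did not pair the arrays: of 18 same-numbered pairs, correlations of deviations from the group means ran from -0.13 to 0.12 and 1 was over 0.1. With the replicate block the members' medians stayed at 0.15, 0.22 and 0.19, 23 members fell in HM1 in place of 19, and 396 genes passed the interaction in place of 443. The dim probe sets of H3f3b, Stat3, Nf1 and Upf1 gave larger errors than most members, with SEs of 0.16 to 0.19 at 1 day. Brighter members had large errors too: Fkbp8 0.22, Nme1 0.20 and Polr2a 0.19, at mean intensities of 379, 4230 and 606. A difference of 0.2 at 1 day is about 2 SE of a member at the median SE of 0.10.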
